A study of Mus musculus with 9 samples.

Results

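The comparison set a Stat5b-/- cell line against a wt cell line across all expressed genes, in 3 libraries of each, 6 of the 9 libraries of the series. RNA-seq had been made from BCR/ABLp185+ lines, which are bone marrow cells of C57BL/6N mice transformed with the BCR/ABL oncogene, so that all lines carried BCR/ABLp185. They were grown in RPMI with serum, mercaptoethanol, penicillin and streptomycin. The groups were wt cells, which carried the oncogene and intact Stat5 genes, and Stat5b-/- cells, which carried the oncogene and the Stat5b deletion. A Stat5a-/- line with the oncogene and the Stat5a deletion, also in 3 libraries, entered the fit and is quoted only where a direct test of the knockout lines is given. There was 1 cell line per genotype, and its 3 libraries are technical replicates. The p-values therefore measure the spread between libraries of 1 line, and a difference of genotype cannot be told apart from a difference between these lines. The deposited description of the knockout samples calls them wt, in conflict with their titles and genotype labels, which were followed here.

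STAT5A and STAT5B are closely related transcription factors that JAK kinases, or the BCR/ABL kinase in these leukemia cells, activate by phosphorylation. Active dimers bind a palindromic element and act on genes of cytokine feedback, the cell cycle and survival. B-lineage precursors pass from pro-B to pre-B stages under signals of the IL-7 receptor and the pre-B-cell receptor, and MYC, a driver of ribosome production and metabolism, is a main growth regulator of the transformed cells.

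The element TTCNNNGAA, the core letters of a STAT site, was read from promoters of a list of STAT5 target genes, and the stretches of the 3 promoters that held it are shown because they belong to genes described below. The windows come from RefSeq on GRCm38.p6, run 5′ to 3′ on the strand of the gene, and have the element in capitals.
Cish: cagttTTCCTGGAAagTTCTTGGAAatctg
Socs3: cagccTTCTTAGAAgggaggggggggaaag
Bcl6: attagTTCTCAGAAttccagaggccgagct
The Cish window lies at chr9:107296654-107296683 on the plus strand, and its first element begins at the transcription start with another 11 bases on. The Socs3 window lies at chr11:117969496-117969525 on the minus strand, with the element 154 bases before the start. The Bcl6 window lies at chr16:23988946-23988975 on the minus strand, with the element 118 bases before the start. A match is a match of letters in a promoter window of 300 bases and says nothing of binding.

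The targeted gene was examined first. Stat5b (ENSMUSG00000020919.11, chromosome 11 from 100780731 to 100850724 of GRCm38) had 107, 103 and 106 normalized CPM in the wt libraries and 72.3, 58.5 and 59.5 in the Stat5b-/- libraries. Normalized CPM, or CPM below, are counts scaled to the size of the library with edgeR's TMM factors. The groups did not overlap, and Stat5b was lower by 0.73 on the log2 scale (SE 0.11, adjusted p = 1.69e-04, by the quasi-likelihood test of edgeR, adjusted over all tested genes after Benjamini and Hochberg, as throughout). Thus 1055, 856 and 781 reads of the gene were still counted in the Stat5b-/- libraries, and gene-level counts do not show which exons they came from. Its neighbour Stat5a (ENSMUSG00000004043.14, chromosome 11 from 100859351 to 100885169) had 48.2, 36 and 45.3 normalized CPM in wt and 87.1, 91.7 and 72.2 in Stat5b-/- libraries. Every Stat5b-/- library was above every wt library, a rise of 0.96 ± 0.13 (log2 fold change ± SE, adjusted p = 5.95e-05).

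Depth lay between 12527910 and 19016396 counted reads per library in the groups compared. Transcripts of the mitochondrial genome took 5.36% to 8.21% of the reads. The lines also differed in sex-linked genes. Xist, the RNA that silences an X chromosome, had 9.45, 11.9 and 12.3 normalized CPM in wt and 2363, 2827 and 1968 in Stat5b-/- libraries, while the Y-linked Ddx3y had 23.7, 35.4 and 29.6 in wt and 14.3, 8.54 and 14.9 in Stat5b-/- libraries. In the direct test Xist did not differ between the knockout lines at this precision (log2 difference 0.24, adjusted p = 0.21). Ddx3y was higher there in the Stat5b-/- line (1.085, adjusted p = 0.00376). B-lineage genes marked every library, with Cd79a, a signalling chain of the B-cell receptor, at 678 to 746 normalized CPM in wt and 1276 to 1740 in Stat5b-/- libraries. The neutrophil granule genes Mpo, Elane and Ctsg had at most 2 reads in any of these 6 libraries.

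T-cell transcripts stood apart between the lines and are given before the other results. Of 24 T-cell marker genes 23 could be tested, and 22 of them rose and 0 fell, with a median log2 fold change of 1.14. Over all 13852 tested genes 3347 rose (24.2%) and 3049 fell (22.0%), with a median of 0.02. The summed level of the markers was 1159, 1568 and 1450 normalized CPM in wt and 3664, 2597 and 3459 in Stat5b-/- libraries, so that the lowest Stat5b-/- library lay above the highest wt library. The 7 genes of the T-cell receptor complex moved as a block, between 1.13 and 1.21, among them Cd3e, a signalling chain of the receptor, with 127, 175 and 159 in wt and 377, 265 and 366 normalized CPM in Stat5b-/- libraries. Cd8a, the co-receptor of cytotoxic T cells, rose by 1.16 ± 0.19. Lck and Zap70, kinases that signal from the receptor, rose further, by 2.56 ± 0.13 and 2.34 ± 0.12. Lck had 28.6, 38.5 and 38.3 normalized CPM in wt and 223, 192 and 209 in Stat5b-/- libraries. Between 19 and 22 of the 35 T-cell receptor beta V segments had reads in each library, and Trbv3 led in all 6. In bulk RNA, more cells of a type and more RNA per cell cannot be told apart.

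**Figure D1:**
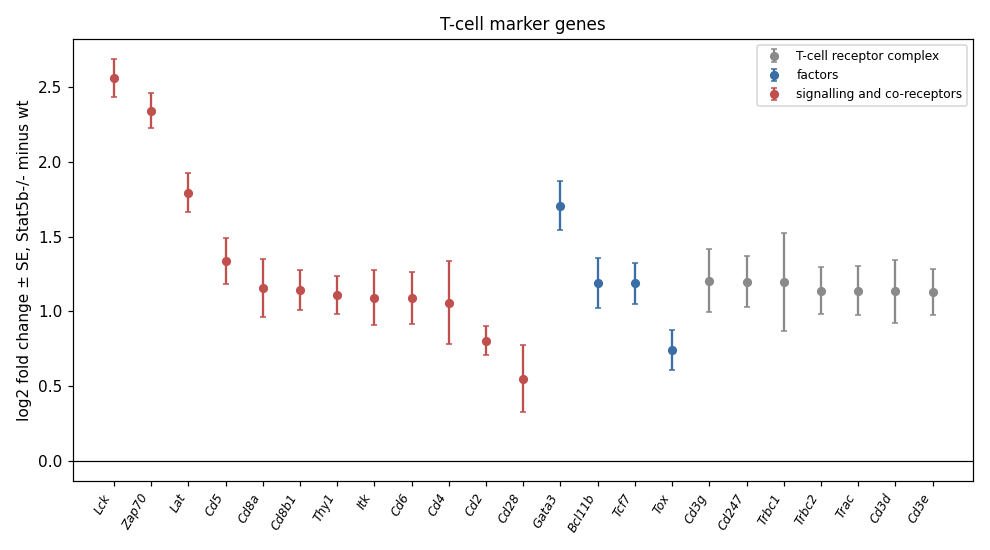
The log2 fold change of each tested T-cell marker gene between the Stat5b-/- and wt lines (y axis) is plotted with its SE, in colours for the receptor complex, the signalling and co-receptor genes, and the transcription factors. All 23 points lie above 0, the 7 of the receptor complex between 1.13 and 1.21, and Lck and Zap70 at the top.

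NK-cell and cytotoxic markers also rose, in 7 of 9 tested genes with a median of 1.11, and summed to 86.7, 133 and 117 normalized CPM in wt and 271, 164 and 248 in Stat5b-/- libraries. The NK groups did not overlap either. Their exception was Klrb1c, the NK1.1 antigen, which fell by 2.65 on the log2 scale (SE 0.18). Myeloid markers, of which 7 of 15 rose (4 without Stat5b-/- replicate 1) and 4 fell, summed to 78.2 to 83.8 normalized CPM in wt and 76.8 to 95.0 in Stat5b-/- libraries. Dendritic markers, of which 5 of 9 rose and 2 fell, summed to 503 to 607 in wt and 470 to 526 in Stat5b-/- libraries. Plasma-cell markers, of which 4 of 7 rose and 2 fell, summed to 731 to 747 in wt and 1015 to 1186 in Stat5b-/- libraries, which did not overlap. The 5 dendritic rises became 2 without wt replicate 1, Stat5b-/- replicate 1 or Stat5b-/- replicate 3 and 3 without wt replicate 2, wt replicate 3, Stat5a-/- replicate 1 or Stat5a-/- replicate 2, and the 2 falls 1 without wt replicate 2 or wt replicate 3. Stromal and endothelial markers, with 1 of 13 above the filter on low counts, summed to 121 to 127 and 202 to 217, and erythroid and megakaryocyte markers to 23.6 to 30.2 and 13.9 to 17.6. The fit was repeated with the log2 sum of the T-cell markers as a covariate. It then made 658 calls higher and 632 lower at an adjusted p under 0.05 and more than 2-fold, against 1471 (10.6% of the tested genes) and 1169 (8.44%) without it. Under the covariate 0 of the NK-cell and cytotoxic markers rose and 3 fell, and 0 of the myeloid or dendritic markers did either. Of the plasma-cell markers 1 rose and 0 fell, and of the T-cell markers 2 rose and 2 fell. Since the covariate does not overlap between the lines, it also takes up what the lines differ in. Where a gene's rise or fall that did not pass with the covariate is printed below, the fold change under the covariate stands beside it. Of the genes named here, 44 passed an adjusted p under 0.05 without the covariate and not with it, whatever their fold change. Of these, 12 had a log2 fold change at least as large with it, Stat5b among them at -0.82 (adjusted p = 0.172). The part of T-cell transcripts in the results was not tested otherwise.

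The differences were spread over many functions. At an adjusted p under 0.05 alone, 6396 genes (46.2%) differed, so a list with that share of its members changed is no different from the genes at large. In 3792 genes (27.4%) every Stat5b-/- library lay above every wt library, and in 3713 (26.8%) below. Groups that do not overlap were therefore common. Lists are described by how many of their tested members rose and fell and by their median. Lists of growth and metabolism lay at the lower end and lists of immune recognition and surface receptors at the upper end.

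**Figure D2:**
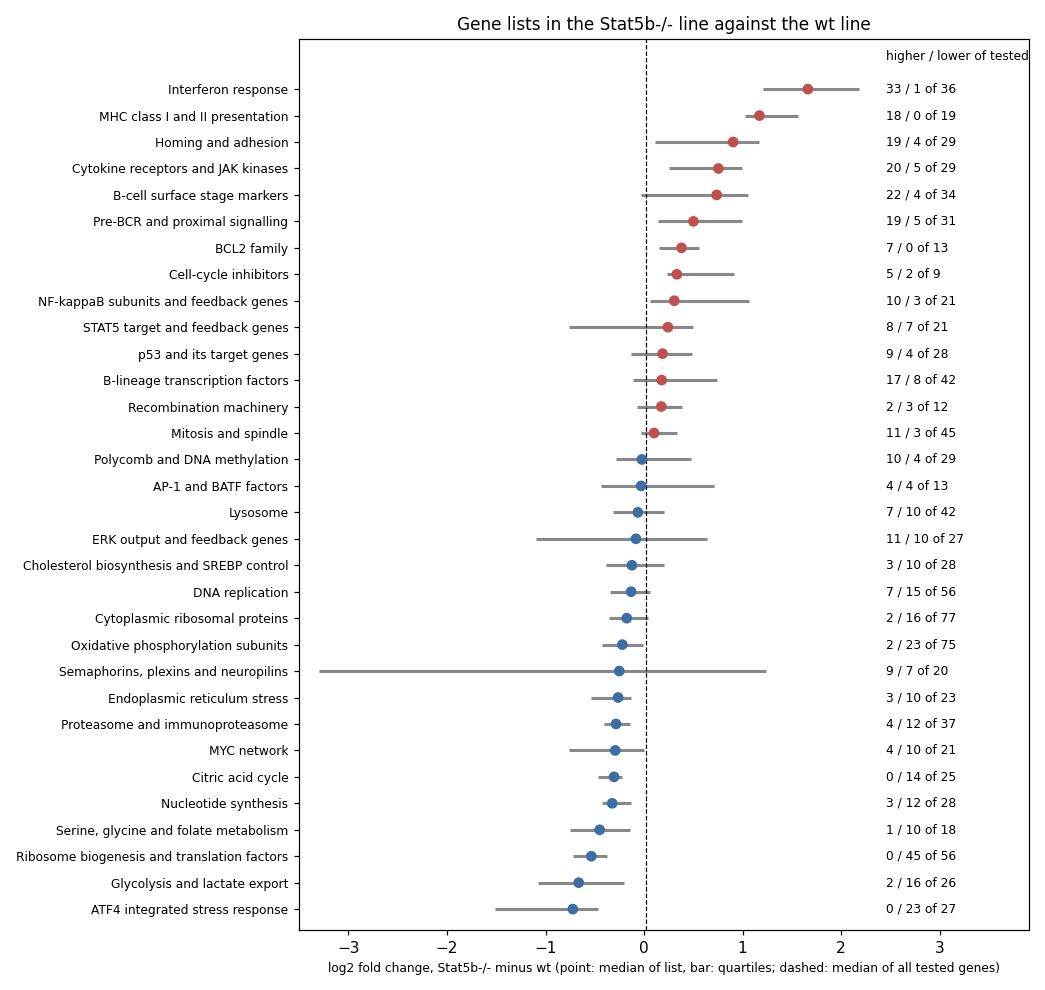
For 32 gene lists the point gives the median log2 fold change of the tested members between the Stat5b-/- and wt lines (x axis) and the bar their quartiles, with the numbers of members that rose and fell at right and the median of all tested genes as a dashed line. Medians run from -0.72 for the ATF4 list to 1.66 for the interferon list, against 0.02 over all genes.

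Myc fell furthest among the factors of its own network. Myc (ENSMUSG00000022346.15, chromosome 15 from 61985391 to 61990374) had 1150, 1059 and 1165 normalized CPM in the wt libraries and 330, 305 and 247 in the Stat5b-/- libraries. No libraries overlapped, and the fall was 3.82-fold (log2 fold change -1.94 ± 0.12, adjusted p = 5.29e-08). Myc was also lower in the Stat5b-/- than in the Stat5a-/- line, by 1.38 on the log2 scale (adjusted p = 2.26e-06). Mycn, its paralog, had 68.1, 66.4 and 70.0 normalized CPM in wt and 172, 173 and 126 in Stat5b-/- libraries, a rise of 1.20 ± 0.14. Mxd3, which competes with MYC for the partner MAX, rose by 1.53 ± 0.13. Over the network of 21 factors and targets 4 rose and 10 fell, and 2 rose and 1 fell with the T-cell covariate, the 1 being Myc. Srm, which makes spermidine and is a direct target of MYC, had 871, 652 and 790 normalized CPM in wt and 297, 297 and 234 in Stat5b-/- libraries, a fall of 2.79-fold (log2 fold change -1.48) that no longer passed with the covariate (-0.75, adjusted p = 0.255).

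Genes that build ribosomes fell together. Of 56 tested genes of ribosome biogenesis and translation 45 fell and 0 rose, with a median of -0.54 and a range from -1.19 to 0.11. The falls were mostly under 2-fold, 3 members going beyond it. Nop10, a subunit of the ribonucleoprotein that modifies ribosomal RNA, had 272, 268 and 293 normalized CPM in wt and 116, 121 and 128 in Stat5b-/- libraries and fell 2.28-fold (adjusted p = 1.54e-06). Nolc1, a nucleolar chaperone, fell by 1.09 on the log2 scale (SE 0.12), and Npm1, the abundant nucleolar protein nucleophosmin, by 1.01 (SE 0.16). The 48 genes of ribosomal RNA processing held 39 of the falls, and 6 of the 8 translation factors fell. In the direct test 24 of the 56 were lower in the Stat5b-/- than in the Stat5a-/- line, where 17.5% of all tested genes were lower. With the T-cell covariate 3 of the 56 fell, Nop10 among them, while the log2 fold change was -0.87 for Nolc1 (adjusted p = 0.168) and -1.59 for Npm1 (adjusted p = 0.0592).

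The ribosomal proteins themselves moved less. Of 77 tested genes 16 fell and 2 rose, with a median of -0.18, a share of falls near that of all genes. Rps12 of the small subunit had 35.2, 37.4 and 34.7 normalized CPM in wt and 13.8, 19.7 and 19.9 in Stat5b-/- libraries (log2 fold change -1.01, with the covariate -0.74 and adjusted p = 0.28). Rpl35a of the large subunit went the other way, with 50.4, 65.7 and 58.2 in wt and 86.8, 109 and 158 in Stat5b-/- libraries (log2 fold change 1.02, with the covariate 0.28 and adjusted p = 0.819). The number of falls was 9 and that of rises 4 without wt replicate 1, the 2 rises became 1 without each of wt replicates 2 and 3, Stat5b-/- replicates 2 and 3 and Stat5a-/- replicates 1 and 2, and with the T-cell covariate 5 genes fell and 1 rose. Many ribosomal protein genes have near-identical pseudogene copies, whose shared reads the counter drops.

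Metabolic genes were lower in several pathways. For glycolysis and lactate export 16 of 26 tested genes fell and 2 rose, with a median of -0.66, and 8 of the falls were over 2-fold. Aldoa, which splits fructose bisphosphate, had 1709, 1298 and 1442 normalized CPM in wt and 711, 711 and 592 in Stat5b-/- libraries, a 2.21-fold fall (adjusted p = 1.67e-05). Eno1, the enolase of the lower pathway, had 352, 308 and 309 in wt and 142, 146 and 129 in Stat5b-/- libraries, a 2.33-fold fall. For neither gene did any library of one line reach the other line. With the covariate the log2 fold change went from -1.14 to -0.44 for Aldoa (adjusted p = 0.48) and from -1.22 to -0.79 for Eno1 (adjusted p = 0.0819). Larger falls that also passed with the covariate were those of Slc16a3, a lactate exporter, with 38.5, 24.0 and 29.9 normalized CPM in wt and 1.71, 0.957 and 1.90 in Stat5b-/- libraries, and of Aldoc, a paralog of Aldoa, with 29.6 to 37.2 in wt and 0.99 to 2.06. Slc2a3, a glucose transporter, fell by 2.14 on the log2 scale (SE 0.20) and Pfkm, a subunit of phosphofructokinase, by 1.84 (SE 0.13). Pfkfb3, which makes the activator of phosphofructokinase, rose by 1.11 ± 0.10. With the covariate 4 genes of the list fell and 1 rose. The 2 rises became 1 without each of wt replicates 2 and 3, Stat5b-/- replicates 1 and 2 and Stat5a-/- replicates 1 and 2. In the direct test 14 of the 26 were lower in the Stat5b-/- than in the Stat5a-/- line and 0 higher.

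For the citric acid cycle 14 of 25 tested genes fell and 0 rose, with a median of -0.31. Idh2, the mitochondrial NADP-dependent isocitrate dehydrogenase, had 123, 108 and 118 normalized CPM in wt and 28.9, 28.0 and 31.3 in Stat5b-/- libraries, a 3.95-fold fall (adjusted p = 1.32e-08). It was lower than in the Stat5a-/- line too, by 2.27 on the log2 scale (adjusted p = 7.05e-09). Aco1, the cytoplasmic aconitase that doubles as an iron sensor, fell 4.13-fold, with 98.5 to 102 normalized CPM in wt and 21.7 to 26.0 in Stat5b-/- libraries. Idh2 and Aco1 were the falls over 2-fold, and both passed with the T-cell covariate, under which 2 genes of the list fell. The 14 falls became 7 without wt replicate 3. Subunits of oxidative phosphorylation fell in 23 of 75 tested genes, and 2 rose, against 22.0% of falls over all genes, and their median was -0.22. The 2 rises became 0 without wt replicate 2, wt replicate 3, Stat5b-/- replicate 2 or Stat5b-/- replicate 3, and 1 without Stat5a-/- replicate 1 or Stat5a-/- replicate 2. Uqcrq of complex III fell furthest, with a log2 fold change of -0.94 ± 0.14, and with the covariate, under which 1 gene of the list fell, its log2 fold change was -0.29 (adjusted p = 0.672). Cholesterol synthesis and its control had 10 falls and 3 rises in 28 genes with a median of -0.12, and with the covariate 0 did either. The 10 falls became 6 without wt replicate 2, without wt replicate 3 or without Stat5b-/- replicate 2, and the 3 rises 5 without Stat5b-/- replicate 3.

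Genes of the ATF4 response, which cells switch on for amino acid supply, had the lowest median of the lists plotted. Of 27 tested genes 23 fell and 0 rose, with a median of -0.72, and 10 fell more than 2-fold. Atf4, the transcription factor, had 984, 928 and 987 normalized CPM in wt and 618, 583 and 545 in Stat5b-/- libraries, lower by 0.73 on the log2 scale (SE 0.09, adjusted p = 3.08e-05). Cth, which makes cysteine from cystathionine, had 135, 148 and 144 in wt and 33.7, 38.5 and 41.0 in Stat5b-/- libraries, a 3.77-fold fall (adjusted p = 1.00e-08). Gpt2, a mitochondrial alanine transaminase, had 133, 121 and 131 in wt and 28.8, 29.5 and 25.3 in Stat5b-/- libraries, a 4.60-fold fall. The arginine transporter gene Slc7a3 fell 3.99-fold. Asns, asparagine synthetase, fell by 0.71 (SE 0.12) and Trib3, a pseudokinase induced by ATF4, by 1.43 (SE 0.15). Vldlr, a lipoprotein receptor, had 452, 607 and 554 reads in wt and 2, 1 and 0 reads in Stat5b-/- libraries. With the covariate 5 of the 27 fell, among them Cth, Gpt2, Slc7a3 and Vldlr, while Atf4 (log2 fold change -0.64, adjusted p = 0.156), Asns (-0.35, 0.56) and Trib3 (-0.68, 0.344) did not pass.

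The serine and folate pathway, which feeds nucleotide synthesis, had 10 falls and 1 rise in 18 tested genes, with a median of -0.45. Its 3 genes of serine synthesis all fell. Psph, the last enzyme of serine synthesis, had 144, 126 and 127 normalized CPM in wt and 34.4, 43.2 and 42.3 in Stat5b-/- libraries, a 3.32-fold fall, and it was the fall of this list that passed with the covariate. Psat1, the transaminase before it, fell 2.15-fold (log2 fold change -1.11, and -1.15 with the covariate at an adjusted p of 0.0627). Shmt2, the mitochondrial enzyme that moves a carbon from serine to folate, fell by 0.82 on the log2 scale (SE 0.13, with the covariate -0.41 and adjusted p = 0.536). The rise was that of Tyms, thymidylate synthase, by 1.17 ± 0.12. Nucleotide synthesis had 12 falls and 3 rises in 28 genes with a median of -0.32. Its extreme was a rise, of Impdh1, which commits inosine monophosphate to guanine nucleotides, with 38.0, 28.4 and 34.5 normalized CPM in wt and 190, 167 and 125 in Stat5b-/- libraries (4.78-fold). With the covariate 0 of these 12 fell and 2 rose, Tyms and Impdh1.

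**Figure D3:**
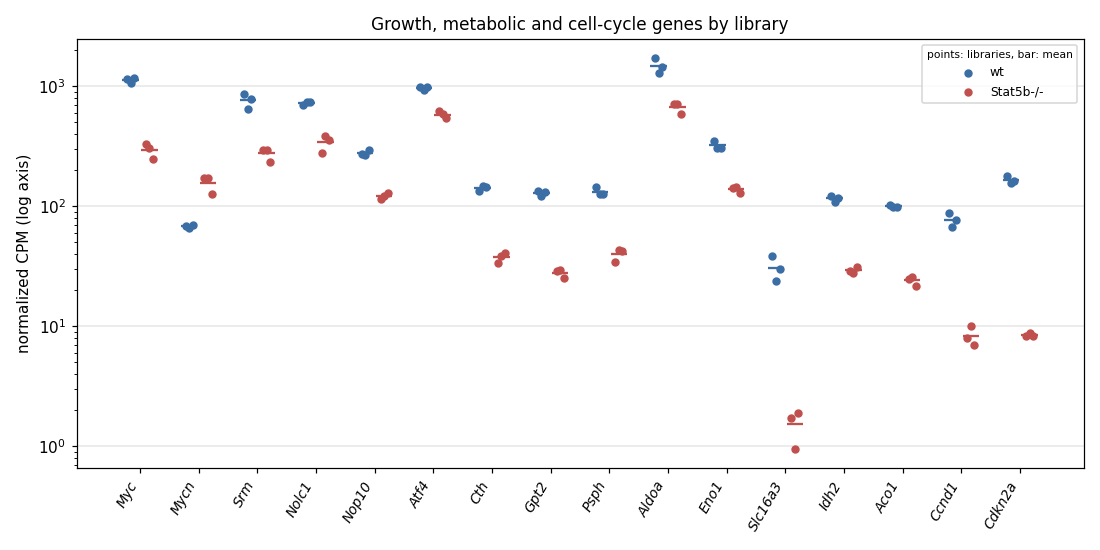
Normalized CPM (y axis, log scale) of 16 growth, metabolic and cell-cycle genes in each of the 3 wt and 3 Stat5b-/- libraries, with a bar at the mean of each line. The lines do not overlap for any of the 16 genes, and Mycn is the gene whose Stat5b-/- libraries lie above the wt libraries. Over all tested genes 27.4% lie wholly higher and 26.8% wholly lower in the Stat5b-/- libraries.

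Genes of protein handling were split by function. Of 37 proteasome genes 12 fell and 4 rose, and the 4 rises were among the 5 genes of the immunoproteasome, the form that cuts peptides for MHC class I. Psmb9, a catalytic subunit of it, had 39.2, 33.2 and 36.4 normalized CPM in wt and 161, 164 and 149 in Stat5b-/- libraries, a rise of 4.36-fold (adjusted p = 4.37e-09). Psmb8, another, rose 1.71-fold. The 12 falls were 19 without Stat5b-/- replicate 3, and with the covariate 2 genes rose and 0 fell. The endoplasmic reticulum list had 10 falls and 3 rises in 23 genes, 9 of the falls among its 14 chaperone genes. Hspa5, the main chaperone of that compartment, fell by 0.90 on the log2 scale (SE 0.12, with the covariate -0.73 and adjusted p = 0.258), while Edem1, which passes misfolded proteins on for disposal, rose by 0.98 ± 0.09 (with the covariate 0.76 and adjusted p = 0.0927, under which 0 of the list rose or fell). Lysosomal genes had a median of -0.06 with 10 falls and 7 rises in 42 genes, and 2 of the falls were of another size. Hexa, a subunit of beta-hexosaminidase, had 24.1, 21.4 and 23.2 normalized CPM in wt and 2.13, 1.23 and 1.6 in Stat5b-/- libraries. Gaa, the lysosomal enzyme that breaks down glycogen, had 106, 77.4 and 92.6 in wt and 11.4, 6.77 and 7.24 in Stat5b-/- libraries. Both were also lower than in the Stat5a-/- line, Hexa by 4.03 and Gaa by 2.53 on the log2 scale. With the covariate 3 lysosomal genes fell, Hexa and Gaa among them, and 1 rose. The 7 rises became 4 without wt replicate 2.

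Cell-cycle genes did not move as a group. DNA replication had 15 falls and 7 rises in 56 tested genes with a median of -0.13, and mitosis and spindle genes 11 rises and 3 falls in 45 with a median of 0.10, each share of changed genes below the 46.2% of all genes. With the covariate 0 and 2 of the replication genes fell and rose, and 0 of the mitotic genes did either. The 7 rises of replication genes became 4 without wt replicate 3, and the 3 falls of mitotic genes 5 without Stat5b-/- replicate 3. Orc1, a subunit of the origin recognition complex, fell by 0.92 on the log2 scale (SE 0.11, with the covariate -0.76 and adjusted p = 0.148), and E2f2, a factor that switches on replication genes, rose by 1.42 ± 0.17. Mki67, the proliferation marker, had 1038, 1294 and 1325 normalized CPM in wt and 1569, 2246 and 2144 in Stat5b-/- libraries (log2 fold change 0.70, adjusted p = 0.00141, with the covariate 0.73 and 0.318).

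Of 9 tested cell-cycle inhibitors 5 rose and 2 fell, with a median of 0.33, and 2 rose and 1 fell with the covariate. Cdkn2a (ENSMUSG00000044303.6, chromosome 4 from 89274471 to 89294653) encodes a cyclin-kinase inhibitor of the INK4 family and ARF, an activator of p53, which gene-level counts do not separate. It had 180, 155 and 161 normalized CPM in wt and 8.30, 8.88 and 8.38 in Stat5b-/- libraries, a 19.4-fold fall (adjusted p = 3.68e-11). Its neighbour Cdkn2b, another INK4 gene, fell as well, from 3.36, 2.37 and 2.95 normalized CPM in wt to 1.3, 1.09 and 1.75 in Stat5b-/- libraries (log2 fold change -1.06, with the covariate -0.72 and adjusted p = 0.586). The INK4 genes Cdkn2c and Cdkn2d rose, by 0.91 ± 0.11 and 1.54 ± 0.11, and so did Rb1, the retinoblastoma protein that INK4 inhibitors keep active, by 0.96 ± 0.14 (with the covariate 0.23 and adjusted p = 0.718). Among D-type cyclins, which drive the kinases that INK4 proteins block, Ccnd1 had 87.8, 66.9 and 76.2 normalized CPM in wt and 7.95, 10.0 and 6.93 in Stat5b-/- libraries. Ccnd2 had 550, 523 and 487 in wt and 326, 283 and 294 in Stat5b-/- libraries, and Ccnd3 2079, 1453 and 1762 in wt and 3335, 2960 and 2269. Thus Ccnd1 and Ccnd2 fell, Ccnd1 9.23-fold and Ccnd2 1.73-fold, and Ccnd3 rose 1.62-fold, with the libraries of no gene overlapping. With the covariate Ccnd2 had a log2 fold change of -0.91 against -0.79 without it (adjusted p = 0.0668) and Ccnd3 of 1.5 against 0.69 (adjusted p = 0.101).

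The p53 list had 9 rises and 4 falls in 28 tested genes with a median of 0.19. Trp53 itself had 648, 575 and 607 normalized CPM in wt and 621, 532 and 459 in Stat5b-/- libraries, which overlapped (adjusted p = 0.228, and 0.0417 without Stat5b-/- replicate 1). Ccng1, a cyclin induced by p53, rose by 1.19 ± 0.13, and Trp53inp1, a stress protein that acts with p53, by 1.76 ± 0.18 (with the covariate 0.66 and 0.41, adjusted p = 0.287 and 0.535). With it 1 gene of the list rose and 2 fell. In the BCL2 family 7 of 13 tested genes rose and 0 fell, with a median of 0.38, and 1 of them passed with the covariate. That 1 was Bok, a pore-forming relative of BAX, with 10.1, 6.26 and 9.01 normalized CPM in wt and 39.9, 36.5 and 28.9 in Stat5b-/- libraries. The rises were on both sides of the family, of the protective Bcl2l1 by 0.54 ± 0.13 (with the covariate 0.98 and adjusted p = 0.148) and of the death-promoting Bcl2l11, which encodes BIM, by 0.55 ± 0.09 (with the covariate 0.49 and adjusted p = 0.292).

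Genes that STAT5 is known to act on did not fall as a set. Of 21 tested genes 8 rose and 7 fell, with a median of 0.24, and 0 rose and 2 fell with the T-cell covariate. Among the feedback inhibitors Cish, whose promoter held a pair of elements, had 16.9, 13.4 and 14.2 normalized CPM in wt and 38.9, 31.3 and 18.4 in Stat5b-/- libraries. All Stat5b-/- libraries were above wt, with Stat5b-/- replicate 3 nearest to it, and the rise was 1.00 ± 0.22 (adjusted p = 0.00266, with the covariate 1.58 and 0.172). Cish was lower than in the Stat5a-/- line by 1.75 on the log2 scale (adjusted p = 4.57e-05). Socs2 had 258, 307 and 275 normalized CPM in wt and 173, 178 and 208 in Stat5b-/- libraries, a fall of 0.59 on the log2 scale (SE 0.11, with the covariate -1.01 and adjusted p = 0.0586). Socs3, with 1 element, had 11.2, 8.94 and 9.07 in wt and 8.64, 5.60 and 8.45 in Stat5b-/- libraries (adjusted p = 0.116), and Bcl6, a repressor with 1 element, 9.09 to 10.6 in wt and 9.67 to 12.8 (adjusted p = 0.23).

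The PIM kinases are survival kinases made on STAT5 signals. Pim1 had 156, 119 and 128 normalized CPM in wt and 87.6, 84.1 and 64.8 in Stat5b-/- libraries, a 1.70-fold fall (log2 fold change -0.77, adjusted p = 9.12e-04, with the covariate -0.08 and 0.93). It was also lower than in the Stat5a-/- line, by 2.11 on the log2 scale (adjusted p = 2.85e-07). Pim3 had 51.5, 36.2 and 37.5 in wt and 21.3, 20.3 and 17.7 in Stat5b-/- libraries, a 2.10-fold fall (log2 fold change -1.07, with the covariate -0.39 and adjusted p = 0.581). The Stat5b-/- libraries lay below every wt library for both. Pim2 had 37.7, 28.7 and 31.5 in wt and 46.6, 36.6 and 37.4 in Stat5b-/- libraries, which overlapped (log2 fold change 0.30, adjusted p = 0.0844, and 0.0336 without wt replicate 1). The 2 falls of the list that passed with the covariate included that of Ccnd1, described above.

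In promoters the element was rare. Windows were found for 9444 of the tested genes, and TTCNNNGAA, which reads the same on both strands, was in 651 of them (6.89%), in 8.14% of those of genes that rose more than 2-fold and in 6.27% of those that fell more than 2-fold. It was in 3 of 15 windows of the STAT5 list and in 8 of 27 windows of the interferon list. The E-box CACGTG, the letters that MYC and MAX bind, was in 10.4% of all windows, in 7.07% of the genes that rose and in 11.1% of those that fell. The core of the interferon-stimulated response element, GAAA and after any 2 bases another GAAA, searched on both strands, was in 3.20% of all windows, in 7.07% of the genes that rose and in 2.58% of those that fell, and in 18 of 27 windows of the interferon list. No share was tested.

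Receptors and signalling genes changed in both directions. Of 29 tested cytokine receptors, JAK kinases and STATs 20 rose and 5 fell, with a median of 0.75, and 4 rose and 1 fell with the covariate. Il10ra, the ligand-binding chain of the IL-10 receptor, had 1.02, 1.97 and 1.67 normalized CPM in wt and 30, 29.4 and 27 in Stat5b-/- libraries, an 18.2-fold rise. Il7r, the receptor chain on which B-cell precursors depend, had 324, 408 and 391 in wt and 289, 233 and 310 in Stat5b-/- libraries, a fall (log2 fold change -0.43 ± 0.13, adjusted p = 0.0179) that did not pass without wt replicate 2, wt replicate 3 or Stat5b-/- replicate 2 and that passed with the covariate (-1.45, adjusted p = 0.00667). Csf2rb2, the beta chain of the mouse IL-3 receptor, had 23.8, 19.8 and 21.7 in wt and 11.7, 9.77 and 9.98 in Stat5b-/- libraries (log2 fold change -1.05, with the covariate -0.76 and adjusted p = 0.308). Its paralog Csf2rb had 80.4, 65.5 and 74.1 in wt and 107, 89.0 and 73.1 in Stat5b-/- libraries, which overlapped. These genes are near-identical, so that reads shared between them may have been dropped. The 5 falls of the list became 1 without wt replicate 3, 2 without Stat5b-/- replicate 2 and 3 without wt replicate 1, wt replicate 2 or Stat5b-/- replicate 3.

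The ERK list was divided, with 11 rises and 10 falls in 27 genes. Dusp5, a phosphatase that switches nuclear ERK off, had 344, 336 and 325 normalized CPM in wt and 124, 111 and 98.7 in Stat5b-/- libraries, a 3.01-fold fall (adjusted p = 5.32e-08). Fos, an early gene of ERK signalling, fell 5.28-fold (log2 fold change -2.40, with the covariate -1.20 and adjusted p = 0.129), from 9.54 to 12.1 normalized CPM in wt to 1.65 to 2.60 in Stat5b-/- libraries. Jund, another AP-1 factor, had 51.5, 61.2 and 58.6 in wt and 174, 111 and 120 in Stat5b-/- libraries (log2 fold change 1.24, with the covariate 0.32 and adjusted p = 0.631). The covariate left 2 rises and 2 falls in the ERK list. The NF-kappaB list had 10 rises and 3 falls in 21 genes, of which 1 and 1 passed with the covariate. Lta, the cytokine lymphotoxin alpha, had 205, 190 and 206 normalized CPM in wt and 61.3, 46.3 and 41.6 in Stat5b-/- libraries, a 4.03-fold fall (adjusted p = 6.78e-08). Lta was lower than in the Stat5a-/- line by 3.39 on the log2 scale (adjusted p = 1.60e-09). Tnf, its neighbour on chromosome 17, fell 2.47-fold and Tnfaip3, which ends NF-kappaB signals, rose 2.43-fold. With the covariate their log2 fold changes went from -1.31 to -1.01 (adjusted p = 0.0687) and from 1.28 to 1.23 (adjusted p = 0.0624). Of 9 tested Notch genes 3 rose and 2 fell, both of the falls among ligands, with a median of 0.02, and 2 rose and 0 fell with the covariate. The 2 falls became 1 without wt replicate 1, Stat5b-/- replicate 1 or Stat5b-/- replicate 2. Notch1, a receptor that steers lymphoid fate, had 44.6, 37.6 and 44.4 in wt and 187, 171 and 107 in Stat5b-/- libraries, and its target Hes1 rose by 0.72 ± 0.11.

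Genes of B-cell development changed in most of their classes, the recombinase most of all. Rag1 (ENSMUSG00000061311.6, chromosome 2 from 101638282 to 101649501) and Rag2 (ENSMUSG00000032864.4, chromosome 2 from 101624718 to 101632529) encode the recombinase of antigen receptor genes. Rag1 had 63.6, 67.1 and 63.4 normalized CPM in wt and 0.48, 0.683 and 0.838 in Stat5b-/- libraries, a 96.5-fold fall (log2 fold change -6.59 ± 0.18, adjusted p = 3.67e-11). Rag2 had 30.3, 37.6 and 29.6 in wt and 0.48, 1.09 and 0.457 in Stat5b-/- libraries. Dntt, the terminal transferase that adds bases at the joins, had 30.1, 25.3 and 26.7 in wt and 56.6, 68.7 and 79.5 in Stat5b-/- libraries, a rise of 1.32 ± 0.13. All passed with the covariate. In the direct test these 3 genes were all higher than in the Stat5a-/- line, with a median log2 difference of 2.95. Of the 9 end-joining genes 1 rose and 1 fell. The 2 rises of the whole recombination list were 4 without Stat5b-/- replicate 1 and 1 without wt replicate 1, wt replicate 3, Stat5b-/- replicate 2 or Stat5b-/- replicate 3. Among immunoglobulin heavy V segments Ighv5-2 led in the wt libraries, with 82 to 107 reads, and Ighv2-2 in the Stat5b-/- libraries, with 61 to 67 reads.

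The pre-B-cell receptor and its signalling genes rose in 19 of 31 and fell in 5, with a median of 0.50. Cd79a, a signalling chain of the receptor, had 746, 678 and 715 normalized CPM in wt and 1740, 1525 and 1276 in Stat5b-/- libraries, a 2.12-fold rise (log2 fold change 1.09, adjusted p = 2.22e-05, with the covariate 1.35 and 0.0547). Igll1, a surrogate light chain, had 608, 594 and 624 in wt and 925, 878 and 952 in Stat5b-/- libraries (log2 fold change 0.59, with the covariate 0.50 and adjusted p = 0.266). Vpreb2, another surrogate light chain gene with a close paralog in Vpreb1, went down, from 244, 204 and 219 in wt to 57.5, 63.5 and 57.8 in Stat5b-/- libraries. Fyn, a SRC-family kinase, rose by 1.15 ± 0.09. The adaptor gene Bank1 fell 5.10-fold, from 65.1 to 72.8 normalized CPM in wt to 12.7 to 15.2 in Stat5b-/- libraries, and Siglecg, an inhibitory lectin, rose 3.86-fold. With the covariate 5 genes of the list rose and 3 fell, Vpreb2 and Bank1 among them.

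Of 42 transcription factors of the lineage 17 rose and 8 fell, with a median of 0.18, and 5 rose and 2 fell with the covariate. Ikzf3, the factor Aiolos of later pre-B cells, had 30.1, 36.1 and 37.9 normalized CPM in wt and 241, 245 and 191 in Stat5b-/- libraries, a 6.50-fold rise (adjusted p = 4.16e-09). Irf4, which acts in pre-B cells and plasma cells, had 104, 112 and 127 in wt and 257, 270 and 274 in Stat5b-/- libraries. Spib, an ETS factor, rose by 1.55 ± 0.12 and Id3, an inhibitor of E proteins, by 1.38 ± 0.14. The commitment factor Ebf1 had 577, 631 and 591 in wt and 635, 803 and 705 in Stat5b-/- libraries (adjusted p = 0.0825, 0.0449 without Stat5b-/- replicate 1), and Bcl11a, a factor of early lymphoid cells, fell by 0.61 (SE 0.10, with the covariate -0.23 and adjusted p = 0.648). Surface markers of B-cell stages rose in 22 of 34 genes and fell in 4, with a median of 0.74, and 3 rose and 3 fell with the covariate. The 4 falls became 2 without wt replicate 2, wt replicate 3 or Stat5b-/- replicate 2. Cd38, an ectoenzyme, had 78.2, 102 and 95.5 normalized CPM in wt and 8.16, 6.83 and 6.70 in Stat5b-/- libraries, a 12.7-fold fall. Ly6a, the Sca-1 antigen, had 5.90, 7.58 and 7.57 in wt and 37.9, 37.2 and 44.1 in Stat5b-/- libraries, a 5.64-fold rise. Ly6a is also made by T cells, and with the covariate its log2 fold change went from 2.5 to 1.83 (adjusted p = 0.00598).

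**Figure D4:**
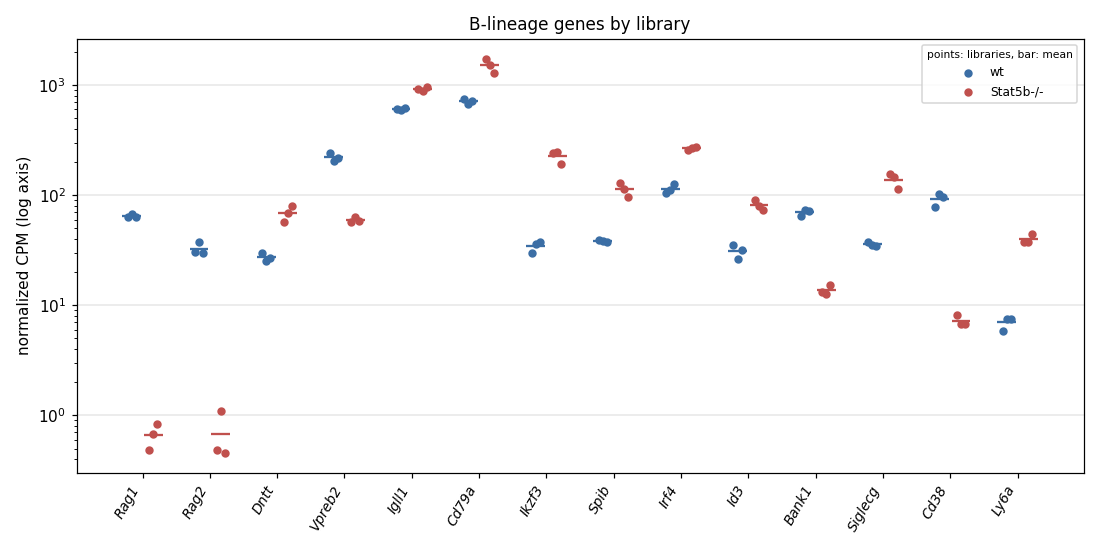
Normalized CPM (y axis, log scale) of 14 B-lineage genes in each of the 3 wt and 3 Stat5b-/- libraries, with a bar at the mean of each line. The gap is widest for Rag1 and Rag2, whose Stat5b-/- libraries lie at 0.457 to 1.09 against 29.6 to 67.1 in wt, while Igll1 differs by 1.51-fold and Cd79a by 2.12-fold.

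Homing and adhesion genes rose in 19 of 29 and fell in 4, with a median of 0.90, and 3 rose and 1 fell with the covariate. Itgal, the integrin chain of LFA-1, had 26.5, 38.7 and 37.9 normalized CPM in wt and 284, 271 and 247 in Stat5b-/- libraries, a 7.77-fold rise that passed with the covariate. Itgal is expressed by all lymphocytes. Cxcr4, which holds precursors in the marrow, rose by 0.58 ± 0.09 (with the covariate 0.67 and adjusted p = 0.114). Guidance genes changed by more than 2-fold wherever they fell, in 7 of 20 tested semaphorin, plexin and related genes, and 9 rose, while 5 fell and 2 rose with the covariate. Plxnb2, a receptor of class 4 semaphorins, had 104, 79.8 and 93.3 normalized CPM in wt and 1.65, 1.64 and 1.6 in Stat5b-/- libraries, a 56.4-fold fall (adjusted p = 1.19e-10). It was lower than in the Stat5a-/- line as well, by 4.52 on the log2 scale. Plxna2, a receptor of class 6 semaphorins, had 1038, 1123 and 1104 reads in wt and 3, 1 and 0 in Stat5b-/- libraries. Sema4a, a ligand with roles in T-cell priming, had 31.8, 35.8 and 36.7 normalized CPM in wt and 220, 186 and 182 in Stat5b-/- libraries, and Ephb4, an ephrin receptor, 0.508 to 0.859 in wt and 34.0 to 51.0.

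The interferon and antigen presentation lists had the highest medians. Of 36 interferon response genes 33 rose and 1 fell, with a median of 1.66, and of 19 MHC genes 18 rose and 0 fell, with a median of 1.17. With the covariate 7 and 9 rose. The fall was that of Bst2, the virus-tethering protein tetherin, with 32.6, 24.9 and 29.7 normalized CPM in wt and 12.6, 14.7 and 13.8 in Stat5b-/- libraries (log2 fold change -1.09, adjusted p = 2.14e-05, with the covariate -0.33 and 0.566). Nlrc5, the transactivator of MHC class I genes, had 34.4, 34.5 and 34.0 in wt and 171, 166 and 134 in Stat5b-/- libraries, and H2-Ab1, a class II chain, 4.57, 5.10 and 6.12 in wt and 35.9, 34.8 and 34.4 in Stat5b-/- libraries. Ciita, the class II transactivator, had 0.317 to 0.693 in wt and 0.957 to 1.68 in Stat5b-/- libraries, a rise of 1.29 ± 0.40 (adjusted p = 0.0181, with the covariate 0.66 and 0.776).

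Of 29 Polycomb and DNA methylation genes 10 rose and 4 fell, a share of changed genes near that of all genes, with a median of -0.02. Ezh2, the methyltransferase of PRC2, had 239, 279 and 251 normalized CPM in wt and 154, 231 and 265 in Stat5b-/- libraries, which overlapped (adjusted p = 0.277). Bmi1 of PRC1 had 120, 145 and 129 in wt and 81.7, 73.9 and 77.1 in Stat5b-/- libraries, a 1.70-fold fall. Dnmt3b, a de novo DNA methyltransferase, fell by 1.30 on the log2 scale and Epop, a PRC2 partner, by 1.77 (with the covariate -0.91 and -1.02, adjusted p = 0.112 and 0.369). The 4 falls of the list were 8 without Stat5b-/- replicate 1 and 7 without Stat5a-/- replicate 3. With the covariate 0 genes of the list rose and 1 fell. None of the 8 HOXA genes passed the filter on low counts, and 2 of their cofactors fell, Meis2 from 25.8 to 27.1 normalized CPM in wt to 0.891 to 1.09 in Stat5b-/- libraries and Pbx3 from 13.4 to 16.8 to 0.533 to 1.03. In the direct test Meis2 was higher than in the Stat5a-/- line, by 2.54 on the log2 scale (adjusted p = 8.60e-04). Pbx3 did not differ there at this precision (log2 difference 0.70, adjusted p = 0.195).

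Well-expressed genes were taken as those with at least 20 normalized CPM per kb of gene model in either line, which held 3156 genes. A gene could enter through only the line where it was high. Scn4b did so with 55.5 per kb in Stat5b-/- and 0.212 in wt libraries, and Bag2 with 40.6 in wt and 0.377 in Stat5b-/- libraries. The counts and largest differences of this class are therefore not independent of the filter. Of these 738 rose and 869 fell, and 220 (6.97%) rose and 121 (3.83%) fell more than 2-fold, with 10 of the 220 on the interferon or MHC lists. Those lists hold only 36 and 19 tested genes and leave out related ones, such as H2-Q6 and Ifi30. Among the largest rises was Scn4b, a subunit of sodium channels, with 1.21, 0.859 and 1.10 normalized CPM in wt and 339, 268 and 223 in Stat5b-/- libraries. Grb7, a signalling adaptor, had 0.698, 1.26 and 0.982 in wt and 215, 170 and 134 in Stat5b-/- libraries, and it lies beside Ikzf3 on chromosome 11. Tgfb3, a TGF-beta ligand, had 8, 6.36 and 5.89 in wt and 136, 131 and 102 in Stat5b-/- libraries, an 18.3-fold rise (adjusted p = 6.59e-10). Tgfb3 was higher than in the Stat5a-/- line by 4.73 on the log2 scale (adjusted p = 9.23e-10), while Scn4b did not differ there at this precision (log2 difference -0.12, adjusted p = 0.581). Ifi30, a lysosomal thiol reductase of antigen presentation, had 9.58, 11.2 and 11.6 in wt and 191, 180 and 178 in Stat5b-/- libraries.

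The largest falls among well-expressed genes included metal-binding proteins and a co-chaperone. Mt1 (chromosome 8 from 94179082 to 94180327), a metallothionein that binds zinc and copper, had 1578, 1183 and 1404 normalized CPM in wt and 12.8, 16.4 and 10.7 in Stat5b-/- libraries, a 104-fold fall (adjusted p = 8.65e-11). Mt2, its neighbour and close relative, had 80.7, 77.0 and 89.5 in wt and 0.960, 0.957 and 0.762 in Stat5b-/- libraries. Bag2, a co-chaperone of HSP70, had 120, 122 and 130 in wt and 0.960, 1.44 and 1.07 in Stat5b-/- libraries, a 107-fold fall. Mt1 and Bag2 were lower than in the Stat5a-/- line too, by 3.84 and 5.69 on the log2 scale (adjusted p = 5.52e-09 and 6.15e-11). Gsn, the actin-severing protein gelsolin, had 212, 151 and 165 in wt and 4.73, 4.31 and 2.89 in Stat5b-/- libraries. Ctse, an aspartic protease, had 244, 254 and 250 in wt and 9.33, 7.04 and 10.2 in Stat5b-/- libraries, and App, the amyloid precursor protein, 64.8 to 73.2 in wt and 1.78 to 3.22. In none of these genes did a library of one line come near the other. Mt2, Gsn and Ctse were also lower than in the Stat5a-/- line (adjusted p = 0.00109, 2.70e-09 and 0.00115). App was higher than in that line, by 0.76 on the log2 scale (adjusted p = 0.0266).

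Transcripts of the T-cell receptor gamma locus on chromosome 13 went against the T-cell markers. Tcrg-C4, a constant region, had 206, 215 and 218 normalized CPM in wt and 1.44, 1.57 and 1.29 in Stat5b-/- libraries. Trgv2 had 1106, 1750 and 1277 reads in wt and 10, 9 and 7 reads in Stat5b-/- libraries. Trgj4, a joining segment, had a mean of 10.1 normalized CPM in wt and 0 reads in the Stat5b-/- libraries, at least 47.4-fold lower when set against the level of 3 counts per library. In the direct test Tcrg-C4 and Trgj4 were lower than in the Stat5a-/- line (adjusted p = 1.97e-09 and 0.00154). Trgv2 did not differ there at this precision (log2 difference 0.72, adjusted p = 0.294).

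**Figure D5:**
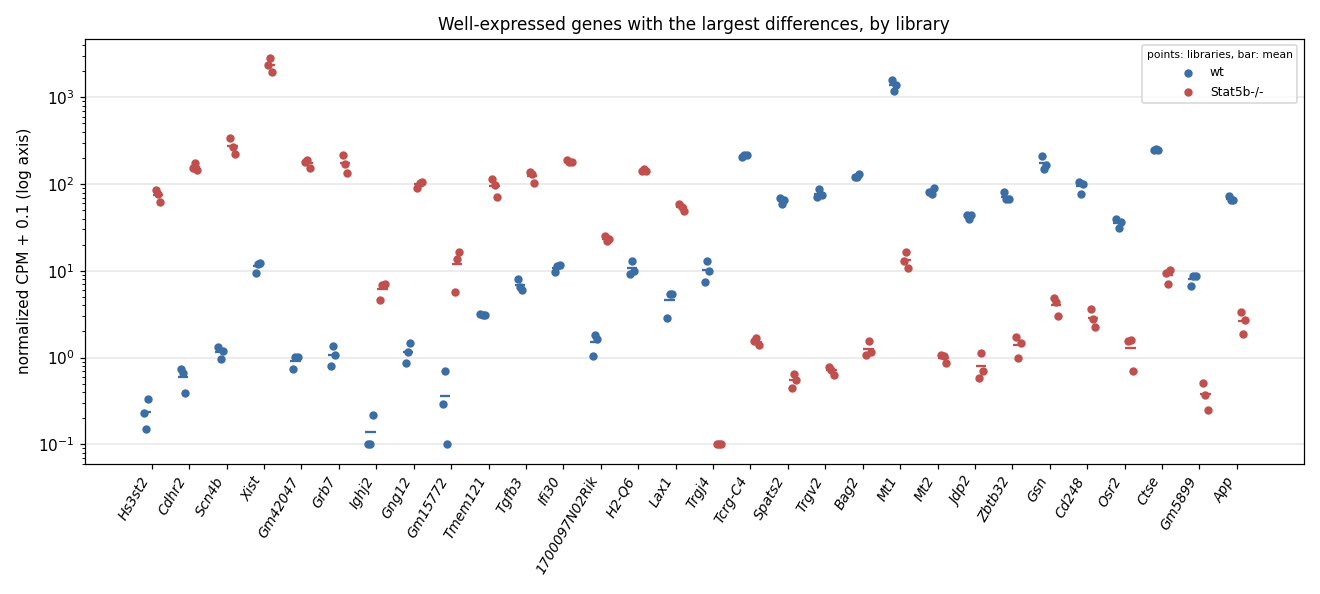
Normalized CPM plus 0.1 (y axis, log scale) of the 15 well-expressed genes with the largest rises and the 15 with the largest falls outside the interferon and MHC lists, in each of the 3 wt and 3 Stat5b-/- libraries, with a bar at the mean of each line. The means differ by more than 10-fold in every gene, and Mt1 falls from a mean of 1388 to one of 13.3.

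The genes with the highest levels per length were not called between the lines. The 10 genes with the most normalized CPM per kb in wt were 8 mitochondrial genes, Rplp1 and Rpl8, 7 of which were also among the top 10 in the Stat5b-/- line, and 0 of them passed an adjusted p of 0.05 against wt. The nearest was mt-Nd1, with an adjusted p of 0.0599. In the direct test mt-Nd1 (adjusted p = 0.00571), Rplp1 (0.0234) and mt-Nd2 (0.0462) differed between the knockout lines.

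Along the genome, chromosome 6 had the highest median among the autosomes and X. Of its 694 tested genes 36.5% rose and 17.4% fell, with a median log2 fold change of 0.22. Chromosome 17 had a median of 0.14, with 27.9% rising and 17.0% falling. The medians of the other autosomes and of X lay between -0.06 and 0.09. In the direct test of the knockout lines chromosome 6 had a median of 0.112, and chromosomes 17, 18 and 19 had -0.42, -0.48 and -0.43. The other autosomes and X lay between 0.012 and 0.114 there, so chromosome 6 did not stand out in that test. T-cell markers such as Cd8a lie on chromosome 6, and their part in its median was not tested.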

How the data were processed

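PolyA RNA had been sequenced as 50 bp single-end reads (SENSE mRNA-Seq kit). Per the file headers and the study's methods, the authors trimmed reads with Trimmomatic, aligned them to GRCm38 with STAR and deposited counts of reads per gene made with featureCounts 1.5.1 on GENCODE M13, without strand and without multiply mapped reads. Reads of overlapping, antisense or near-identical genes are therefore uncertain. Of 50686 genes, 50376 were matched to a symbol, and 13852 passed edgeR's filterByExpr.

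Counts of all 9 libraries were fitted with edgeR 4.0.16 in R 4.3.3 (TMM factors, quasi-likelihood F test, Benjamini-Hochberg adjustment over all tested genes), with the contrasts Stat5b-/- minus wt and Stat5b-/- minus Stat5a-/-. A gene rose or fell at an adjusted p under 0.05, and was called at more than 2-fold besides. The SE is the log2 fold change divided by the root of F, so it covers the spread between technical replicates only. On simulated counts of 13549 genes for this comparison, 94.9% of 196 changed genes were recovered with 14 false calls. In the data 6396 genes (46.2%) passed an adjusted p under 0.05. Recovery with that many differing genes, or by size of fold change, was not tested. Libraries of 1 line were further apart than counting noise (chi-square per degree of freedom 10.1 to 31.4).

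The comparison, its members and the 42 gene lists (1135 genes) were chosen with earlier results of these data known. The genes named in the text were taken, with their values known and without naming all, from the knocked-out genes and Myc, the core members of each list and the 3 largest rises and falls on it with a mean of at least 5 normalized CPM, the 15 largest rises and 15 largest falls among well-expressed genes, and the 10 highest levels per kb. Ccng1, Ciita, Cth, Fyn, Slc7a3 and the leading V segments fall outside this rule and were chosen after their values were seen. Alternatives were RLE scaling, DESeq2 1.42.0, other count filters, fewer libraries or genes, a test against 2-fold, a replicate block, the T-cell covariate and a correction for GC content.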

Additional observations from a re-analysis of the deposited data

How the results depend on the processing

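The numbers of genes called more than 2-fold higher (1471) and lower (1169) stayed within 1.5 times under RLE scaling (1414 and 1196), DESeq2 (1417 and 1302), no filter on low counts (1710 and 1452), a mean of at least 10 counts (1384 and 1070), only the 6 libraries compared (1376 and 1148), without genes on X and Y (1421 and 1114) and a GC offset (1488 and 1171), the last chosen after seeing the data. With the T-cell marker covariate they were 658 and 632. The cause was not tested, as the covariate does not overlap between the lines. Testing against a 2-fold change gave 634 and 727 by construction, and an adjusted p alone 3347 and 3049. Leaving out 1 library gave 1237 to 1608 higher and 1154 to 1265 lower. The share of calls that were higher was 55.7% in all, 49.4% without Stat5b-/- replicate 1, 46.6% in the test against 2-fold and 51.0% with the covariate. A replicate block gave 1438 and 1157. Deviations of same-numbered libraries correlated at -0.0409 on average (-0.27 to 0.102 over 3 pairs), so the numbers did not pair the samples. Examples of list counts that moved by over 1.5 times are the 4 Polycomb falls, 10 under the GC offset, and under DESeq2 the 2 rises of oxidative phosphorylation (0), the 7 of myeloid (4) and the 5 of dendritic markers (2). None of the genes named for a difference changed direction under any alternative run in which it was compared. The 4 of them on the T-cell marker list were not compared under the covariate, with which 2 markers of that list rose and 2 fell. The depth of 12527910 to 19016396 counts limits genes of few reads, and 1 line per genotype limits all results.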
